A study of Mus musculus with 20 samples.

Results

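The structural genes of the extracellular matrix were examined here in mouse liver and in liver tumours: the collagens, the laminins and nidogens of basement membranes, elastic fibre proteins, proteoglycans, matricellular proteins and the enzymes that cross-link collagen. The set was a list of 46 genes chosen by name, with earlier results of these data known. Its counts beside those of all genes describe the list and are no independent test. A gene was counted as measured when the array carried a probe set annotated to its symbol alone. Where a gene had several, the one brightest on average across the 20 arrays stood for it. This gave 43 members among 18193 genes. Fbn1, Efemp2 and Loxl2 were not analysed here, Fbn1 and Efemp2 because no probe set carried their symbol alone and Loxl2 because its probe sets carried several symbols.

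The samples came from male C57BL/6 mice in which Apc could be inactivated conditionally (APCko in the labels), with 5 arrays in each of 4 groups. All groups carried this allele, so no wild-type liver was compared, and the promoter that drives Cre was not given in the sources used here. Per the sample protocols, the mice received 0.75 mg tamoxifen once at 6 weeks of age and, 1 week later, standard chow or chow with 0.05% phenobarbital, a drug that activates the nuclear receptor CAR, for 9 months. The untreated group is called H2O in the labels although its protocol names chow, and the design text of the series speaks of an initiating dose of diethylnitrosamine in place of tamoxifen, which could not be settled. Non-tumour liver came from untreated mice (H2O_NT, called untreated liver below) and phenobarbital mice (PB_NT, phenobarbital liver). Carcinomas (APCko_Carcinoma) were paired by the labels with untreated liver, and adenomas (APCko_Adenoma) with phenobarbital liver. Tumour stage and diet thus differed together, and their effects cannot be told apart. Whether any samples share a mouse is not stated in the labels, so the p-values reflect only how far these arrays scatter.

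The extracellular matrix is a mesh of secreted proteins that holds cells in place and stores growth factors. Fibrillar collagens give it tensile strength, and basement membranes of collagen IV, laminin, nidogen and perlecan underlie epithelia and vessels. In liver most matrix is made by hepatic stellate cells and portal fibroblasts, and the sinusoids normally carry only a sparse basement membrane. Hepatocytes secrete plasma fibronectin. All values below are log2 expression, and a difference of 1 is a 2-fold change. In bulk tissue, fewer cells of a type and less RNA per cell cannot be told apart.

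The carcinomas carried much higher matrix transcript levels than untreated liver, and the adenomas a narrower rise. In carcinoma 32 of 43 members were higher and 3 lower than in untreated liver (limma, adjusted p under 0.05 over all genes), with a median difference of 2.19. Over all 18193 genes, 31.5% were higher and 37.7% lower in that comparison, with a median of -0.12. Of the 12017 genes above 5.85 on at least 5 arrays, 5095 were higher and 4153 lower. The 5 arrays of a single group are enough to meet this filter. It thus keeps genes bright in the tumours alone, and its counts are no neutral background. In adenoma 14 of 43 members were higher and 2 lower than in phenobarbital liver, with a median of 0.52, against 13.5% of all genes higher, 11.3% lower and a median of -0.03. Of the same 12017 genes, 2445 were higher and 1813 lower there. Centring each array on its median moved the share of higher genes among all those called from 45.6% to 33.0% in carcinoma and from 54.5% to 38.9% in adenoma, and turned no member's call round. The 5 tumour and 5 control values did not overlap for 32 of 43 members in carcinoma and for 13 of 43 in adenoma. All of these were among the 35 and 16 members called. Over all genes, called or not, 53.4% did not overlap in the carcinoma comparison and 19.4% in the adenoma comparison.

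Outside tumours no member passed the test for phenobarbital. Against untreated liver 0 of 43 members were called by limma, 0 reached an unadjusted p under 0.05, and 0 were called under any of the 20 alternatives. The median difference was 0.04. Of all genes, 0.225% were called in this comparison. Every member's ranges in the 2 non-tumour groups overlapped, while 4.7% of all genes did not.

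**Figure D1:**
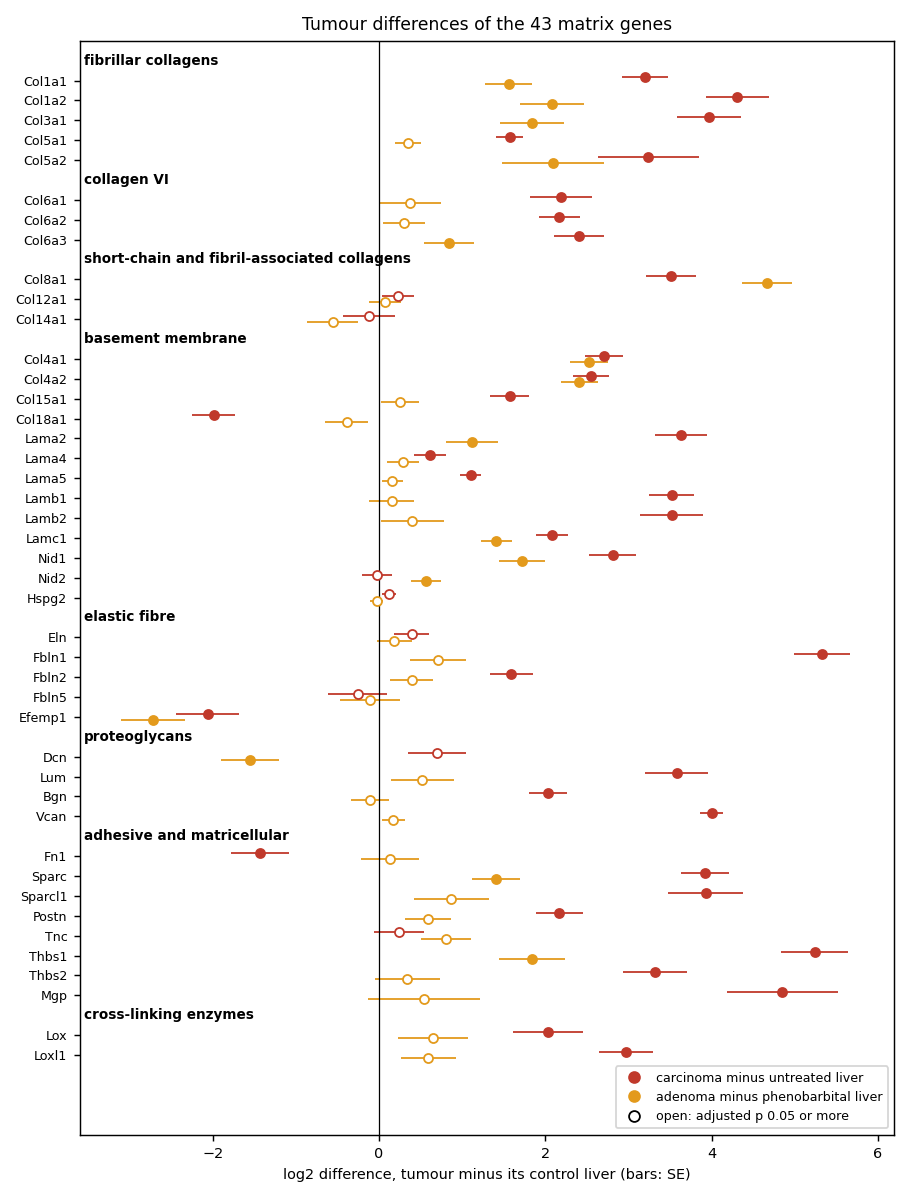
Log2 difference (x axis, bars show SE) of each of the 43 genes, grouped by role (y axis), for carcinoma minus untreated liver and adenoma minus phenobarbital liver, 5 arrays a group. Filled points passed an adjusted p of 0.05 (limma); the carcinoma points mostly lie to the right of the adenoma points, with Col8a1 the reverse and Col4a1 and Col4a2 side by side.

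The upstream sequences of 5 members with contrasting patterns are shown: Col1a2 and Col3a1, which rose in both tumours, Col8a1, which was at its highest in adenoma, Vcan, which was called in carcinoma and not in adenoma, and Efemp1, which fell in both. They are the 250 bases before the transcription start, 5′ to 3′ on the gene's strand, from RefSeq on build GRCm38.p6. The windows lie at chr6:4505368-4505617 (plus strand) for Col1a2, chr1:45311288-45311537 (plus) for Col3a1, chr16:57754738-57754987 (minus) for Col8a1, chr13:89742513-89742762 (minus) for Vcan and chr11:28852955-28853204 (plus) for Efemp1. Capitals mark matches, on either strand, to CCAAT (the CCAAT box), TATAAA (the TATA box), GGGCGG (the GC box), TGANTCA (an AP-1 type site) and CTTTGAA or CTTTGAT (a TCF type site); no printed match overlapped another.
Col1a2: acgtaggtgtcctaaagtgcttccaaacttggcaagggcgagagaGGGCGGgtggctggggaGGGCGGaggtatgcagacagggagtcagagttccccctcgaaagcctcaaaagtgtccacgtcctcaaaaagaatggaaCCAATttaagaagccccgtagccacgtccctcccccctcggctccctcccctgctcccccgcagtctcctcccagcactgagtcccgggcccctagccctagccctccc
Col3a1: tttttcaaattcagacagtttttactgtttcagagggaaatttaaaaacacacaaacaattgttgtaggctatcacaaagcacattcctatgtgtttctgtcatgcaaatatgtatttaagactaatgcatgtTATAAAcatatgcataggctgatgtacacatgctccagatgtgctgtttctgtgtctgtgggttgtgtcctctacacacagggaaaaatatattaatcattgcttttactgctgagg
Col8a1: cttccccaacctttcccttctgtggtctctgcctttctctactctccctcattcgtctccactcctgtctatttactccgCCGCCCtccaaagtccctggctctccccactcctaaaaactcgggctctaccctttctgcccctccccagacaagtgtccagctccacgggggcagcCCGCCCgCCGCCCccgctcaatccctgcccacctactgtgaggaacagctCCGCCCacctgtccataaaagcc
Vcan: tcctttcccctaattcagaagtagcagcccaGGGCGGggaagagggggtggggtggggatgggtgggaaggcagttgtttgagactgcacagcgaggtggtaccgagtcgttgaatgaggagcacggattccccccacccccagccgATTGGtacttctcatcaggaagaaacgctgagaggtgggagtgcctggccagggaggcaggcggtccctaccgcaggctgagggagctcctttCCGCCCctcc
Efemp1: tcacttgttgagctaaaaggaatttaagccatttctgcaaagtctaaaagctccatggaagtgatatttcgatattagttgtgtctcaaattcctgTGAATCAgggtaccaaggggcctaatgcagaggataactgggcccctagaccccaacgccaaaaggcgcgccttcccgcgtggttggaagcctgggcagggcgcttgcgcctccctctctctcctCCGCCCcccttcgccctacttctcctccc
Windows were found for 27 of the 43 members, 33 windows in all. GGGCGG was in 19 of these 33 windows and in 32.7% of all 32851 promoter windows. CCAAT was in 9 of 33 and 33.8% of all, TATAAA in 5 of 33 and 12.4%, TGANTCA in 2 of 33 and 6.75%, and CTTTGAA or CTTTGAT in 3 of 33 and 7.48%. The 3 windows with the last motif belonged to Bgn, Col15a1 and Col6a2. A match is a description of the letters and not of binding, and base composition was not matched.

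Fibrillar collagens, which form the load-bearing fibrils, rose as a group in carcinoma. All 5 measured members were called higher there and 4 of 5 in adenoma, against 31.5% and 13.5% of all genes. For Col1a2, the α2 chain of type I collagen, untreated liver arrays 1 to 5 read 7.79, 7.68, 8.76, 8.99 and 7.83, and phenobarbital liver read 8.23, 8.05, 8.79, 8.05 and 8.59. Carcinomas read 13.01, 12.10, 12.57, 12.30 and 12.61, and adenomas 9.11, 10.41, 11.03, 11.81 and 9.76. The carcinomas lay above every other array, and the adenomas between them and normal liver. The difference was 4.31 (SE 0.38, adjusted p = 5.3e-09) in carcinoma and 2.08 (SE 0.38, adjusted p = 0.00049) in adenoma.

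Col3a1, the type III chain, followed the same order of means, with 12.43 to 13.45 in carcinoma, 9.90 to 11.81 in adenoma, 8.75 to 9.52 in phenobarbital liver and 8.02 to 10.09 in untreated liver. The lowest adenoma, array 1, lay below untreated array 4, and all adenomas lay above all phenobarbital livers. The differences for Col3a1 were 3.97 and 1.84. Col1a1, the α1 chain of type I, differed by 3.20 in carcinoma and 1.56 in adenoma. Type V collagen, which sets fibril diameter, was split in adenoma by the probe sets of highest mean. Col5a1 rose by 1.57 in carcinoma and stood at 0.35 in adenoma (adjusted p = 0.11), and Col5a2 rose by 3.24 and 2.09. The split depends on the probe set: in adenoma another Col5a1 probe set was called higher, by 0.64. The second Col5a2 probe set, at 0.60, was not called there.

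Col5a2 was the most uneven gene among untreated livers. Arrays 1 to 5 read 6.18, 6.40, 8.23, 10.39 and 5.97, so array 4 alone overlapped the carcinomas at 10.19 to 11.20. Phenobarbital liver lay at 6.01 to 6.76 and adenoma at 7.53 to 9.44. Without untreated arrays 3 and 4 the carcinoma difference was 4.49 (SE 0.35, adjusted p = 6e-09). These 2 arrays had the highest untreated readings, so leaving them out had to raise it. The difference between the tumour effects for Col5a2 was -1.15 (adjusted p = 0.29) with all arrays and -2.40 (adjusted p = 0.00045) without those 2 arrays, so that call depends on them. In adenoma, the mean of all Col5a2 probe sets gave 1.34 (adjusted p = 0.074).

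The 3 chains of collagen VI, which form beaded microfibrils around cells, all rose in carcinoma. Col6a1, Col6a2 and Col6a3 differed by 2.19, 2.17 and 2.40. Col6a3 had the largest change of the 3 and read 6.86, 6.57, 7.67, 7.71 and 6.57 in untreated liver, 7.05, 7.14, 7.12, 7.38 and 7.29 in phenobarbital liver, 9.56, 8.99, 9.44, 9.40 and 9.99 in carcinoma and 6.99, 8.51, 8.21, 8.93 and 7.57 in adenoma. Carcinomas stood above all other arrays, though adenoma array 4 lay just below the lowest of them. In adenoma Col6a3 rose by 0.84 (SE 0.30, adjusted p = 0.048), and this call was lost in 14 alternatives, among them leaving out adenoma array 2, 3 or 4 or any 1 phenobarbital array (range 0.62 to 0.89). Col6a1 and Col6a2, at 0.37 and 0.30 in adenoma, did not pass.

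Col8a1 was higher in both tumours, and its mean was highest in adenoma. This short-chain collagen forms networks in vessel walls. It read 4.97, 4.70, 5.67, 5.25 and 4.59 in untreated liver and 4.72, 5.03, 5.11, 4.33 and 4.95 in phenobarbital liver. Carcinomas read 8.67, 9.30, 8.74, 7.61 and 8.43, and adenomas 9.58, 10.29, 9.83, 9.02 and 8.74. Every tumour array exceeded every non-tumour array, and the adenomas were higher on average than the carcinomas, with overlapping ranges.

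The Col8a1 difference was 3.51 (SE 0.30) in carcinoma and 4.67 (SE 0.30, adjusted p = 2.7e-09) in adenoma. All its non-tumour values lay below 5.85, the 40th percentile of all values, so no fold is given. Adenoma exceeded carcinoma by 0.94 (adjusted p = 0.01). The adenoma effect was larger than the carcinoma effect by 1.15 (SE 0.42, adjusted p = 0.032), but this call was lost in 9 alternatives, among them leaving out untreated array 3 or 4, phenobarbital array 1 or 4, carcinoma array 4 or 5, or adenoma array 2 or 3 (range 0.87 to 1.12, adjusted p up to 0.13). The fibril-associated collagens Col12a1 and Col14a1, which decorate fibril surfaces, passed in neither tumour; their carcinoma differences were 0.23 and -0.12. In adenoma another Col14a1 probe set was called lower (-0.75, adjusted p = 0.019), as was the mean of its probe sets (-0.55, adjusted p = 0.038). For Col12a1 this holds for the probe set of highest mean: another of its 4 probe sets rose by 3.45 in carcinoma (adjusted p = 4.8e-08) and the other two did not pass.

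**Figure D2:**
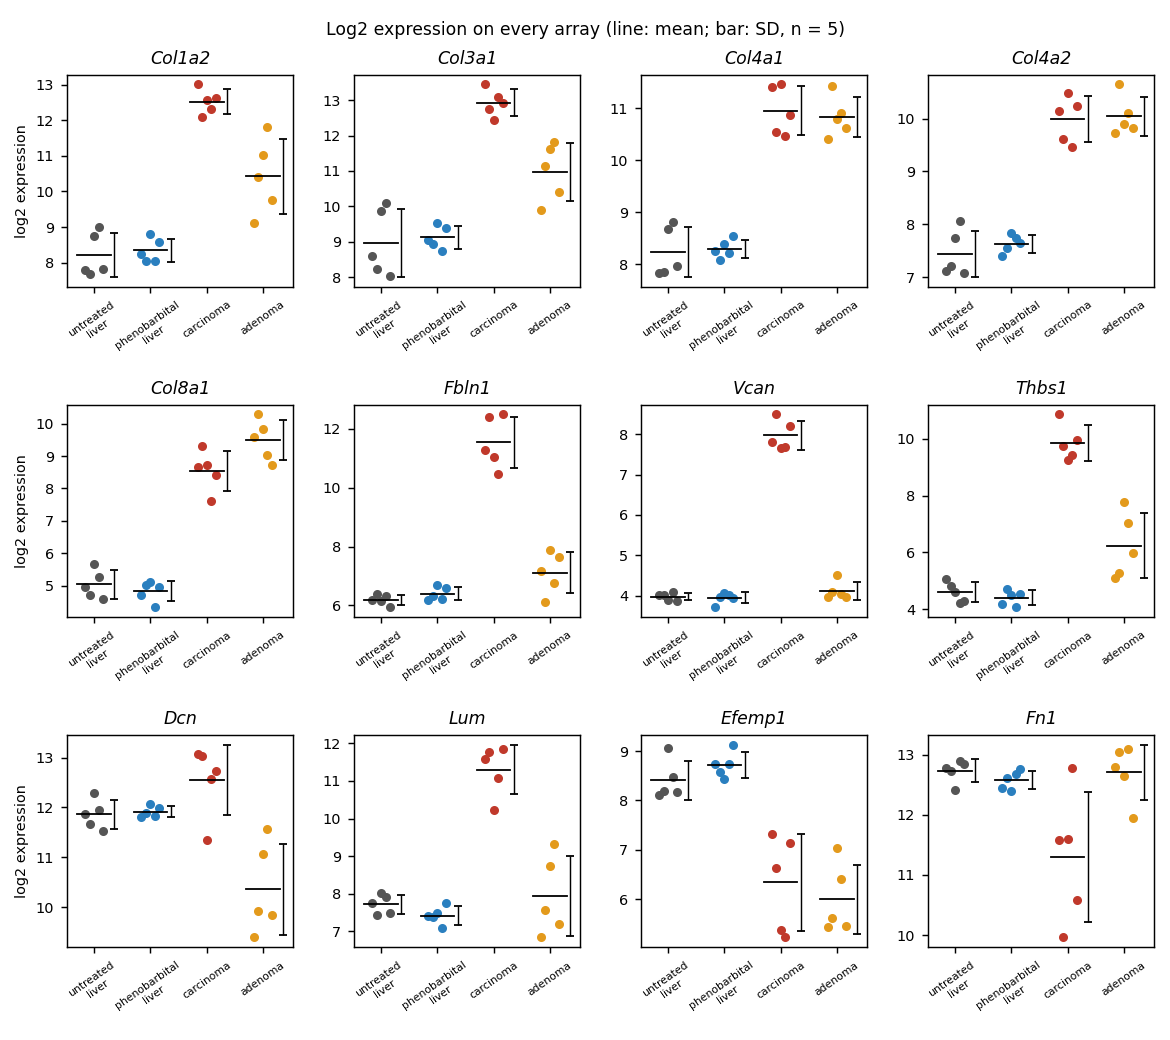
Log2 expression (y axis) of 12 of the genes on every array of the 4 groups (x axis), with the group mean (line) and SD (bar, n = 5). Col4a1 and Col4a2 overlap between adenoma and carcinoma, and Col8a1 has its highest mean in adenoma. Vcan, Fbln1 and Thbs1 are high in carcinoma, Dcn is low in adenoma, and Efemp1 is low in both tumours.

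Basement membrane genes were not uniform. Of 13 members, 10 were higher and 1 lower in carcinoma, and 6 were higher in adenoma. Over all genes 31.5% were higher and 37.7% lower in carcinoma, and 13.5% were higher in adenoma. The collagen IV chains Col4a1 and Col4a2, which build the network of every basement membrane, rose by nearly the same amount in both tumours. Untreated liver arrays read 7.84, 7.86, 8.68, 8.82 and 7.97 for Col4a1 and phenobarbital liver 8.25, 8.09, 8.39, 8.22 and 8.54. Carcinomas read 11.41, 10.55, 11.46, 10.47 and 10.87, and adenomas 10.41, 11.43, 10.79, 10.91 and 10.61. The 2 tumour groups overlapped, and both lay above all non-tumour arrays.

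Col4a1 rose by 2.71 (SE 0.23, 6.57-fold) in carcinoma and by 2.53 (SE 0.23, 5.79-fold) in adenoma. The effects differed by -0.18 (SE 0.33, 95% interval -0.87 to 0.51, adjusted p = 0.68). Col4a2 rose by 2.55 and 2.41, with a difference of -0.14 (95% interval -0.79 to 0.51, adjusted p = 0.73). These intervals are wide, so equal effects were not shown. The 2 genes are neighbours transcribed in opposite directions, and their RefSeq starts overlap by 22 bases.

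The other collagens of basement membrane zones did not follow. Col15a1 rose by 1.57 in carcinoma and stood at 0.25 in adenoma. Col18a1, whose C-terminal fragment is endostatin, fell by 1.99 (SE 0.26) in carcinoma, where arrays read 8.40, 9.65, 10.50, 9.76 and 9.29 against 11.26 to 11.65 in untreated liver. Its adenoma value was -0.39 (adjusted p = 0.30), and the effects differed by 1.60 (adjusted p = 0.0013).

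Laminin chains, the cross-shaped trimers that bind cell receptors, rose broadly in carcinoma and selectively in adenoma. Lama2, an α chain, had the largest basement membrane rise in carcinoma at 3.63 (SE 0.31, adjusted p = 3.9e-09). It read 5.94, 5.70, 5.77, 6.81 and 5.97 in untreated liver, 6.32, 6.34, 6.35, 6.18 and 6.65 in phenobarbital liver, 9.99, 10.07, 8.34, 10.28 and 9.64 in carcinoma and 7.61, 6.98, 8.38, 7.0 and 7.48 in adenoma. Adenoma array 3, at 8.38, reached the lowest carcinoma, array 3 at 8.34, and the tumour groups overlapped only there. The adenoma difference was 1.12 (adjusted p = 0.013).

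Lamb1 and Lamb2, the β chains, both rose by 3.52 in carcinoma and stood at 0.15 and 0.40 in adenoma (adjusted p = 0.74 and 0.49). The difference of effects was -3.37 for Lamb1 and -3.12 for Lamb2. Lamc1, the γ1 chain shared by most laminins, rose in both, by 2.08 and 1.41. Its difference of effects, -0.67 (adjusted p = 0.047), was lost in 16 alternatives, which included leaving out any carcinoma array, untreated array 1, 4 or 5, phenobarbital array 3, 4 or 5, or adenoma array 1 or 3 (range -0.70 to -0.50, adjusted p up to 0.16). A second Lamc1 probe set gave -0.04 in carcinoma and -0.20 in adenoma and did not pass. Lama5 rose by 1.10 and Lama4 by 0.61 in carcinoma; for Lama4 the other probe set gave -0.36 and was called lower.

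Nidogens tie laminin to collagen IV. Nid1 rose by 2.81 in carcinoma and 1.72 in adenoma. The difference of effects for Nid1, -1.09 (adjusted p = 0.029), was lost in 8 alternatives, on leaving out untreated array 2 or 5, phenobarbital array 5, carcinoma array 1 or 5, or adenoma array 1, 2 or 3 (adjusted p up to 0.057). Nid2 stood at -0.03 in carcinoma and rose by 0.56 in adenoma (SE 0.18, adjusted p = 0.032), a call lost in 10 alternatives, among them leaving out phenobarbital array 1, 2, 3 or 4 or adenoma array 2, 4 or 5 (adjusted p up to 0.079). Hspg2, perlecan, stood at 0.12 and -0.03 by the probe set of highest mean, which read 8.69 to 9.06 over all 20 arrays. A second Hspg2 probe set rose by 2.01 in carcinoma (adjusted p = 4.1e-07) and gave 0.47 in adenoma (adjusted p = 0.20).

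Among the elastic fibre genes, Fbln1 and Efemp1 moved in opposite directions. Fbln1 encodes fibulin-1, a calcium-binding glycoprotein of elastic fibres and basement membranes. Untreated liver read 6.18, 6.38, 6.15, 6.32 and 5.94 and phenobarbital liver 6.18, 6.32, 6.70, 6.23 and 6.59. Carcinomas read 11.26, 12.38, 11.05, 10.47 and 12.48, and adenomas 7.18, 6.13, 7.88, 6.75 and 7.65. All carcinomas stood far above the rest, and 4 of 5 adenomas exceeded every non-tumour array. The carcinoma difference of 5.33 (SE 0.34, adjusted p = 3.6e-11) was the largest of all 43 members. The adenoma value, 0.71 (adjusted p = 0.14), did not pass. It passed without adenoma array 2 and with array quality weights (0.86 to 0.96, adjusted p up to 0.039). Another Fbln1 probe set was called higher in adenoma, by 0.98, and the remaining one gave -0.13.

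Efemp1, fibulin-3, fell in both tumours. It read 8.12, 8.19, 9.06, 8.48 and 8.18 in untreated liver, 8.74, 8.57, 8.43, 8.73 and 9.13 in phenobarbital liver, 7.33, 6.63, 5.38, 5.23 and 7.15 in carcinoma and 5.45, 5.63, 7.03, 6.42 and 5.47 in adenoma. Each tumour array was below each non-tumour array. The difference was -2.06 (SE 0.38, adjusted p = 8.2e-05) in carcinoma and -2.72 (SE 0.38, adjusted p = 3.1e-05) in adenoma. Fbln2 rose by 1.59 in carcinoma, its second probe set giving -0.05, while Eln, the elastin gene, and Fbln5, which guides elastin assembly, passed in neither tumour. Eln passed in carcinoma with array weights or without carcinoma array 1 or 4 (0.42 to 0.55), while its other probe set was called lower there (-0.31, adjusted p = 0.048). The other Fbln5 probe set was called lower in carcinoma (-0.43) and adenoma (-0.36).

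Proteoglycans, core proteins that carry sugar chains and bind collagen, were higher for 3 of 4 members in carcinoma and for 0 of 4 in adenoma. Over all genes 31.5% were higher in carcinoma and 13.5% in adenoma, so the adenoma count is no result about these 4. Vcan, the large chondroitin sulfate proteoglycan versican, read 4.01, 4.01, 3.90, 4.08 and 3.86 in untreated liver and 3.71, 3.96, 4.06, 4.02 and 3.95 in phenobarbital liver. Carcinomas read 7.81, 8.49, 7.66, 7.68 and 8.21, and adenomas 3.96, 4.09, 4.50, 4.03 and 3.97. The adenomas lay with normal liver. The difference was 4.0 (SE 0.14, adjusted p = 9.1e-15) in carcinoma and 0.17 (adjusted p = 0.42) in adenoma, and the effects differed by -3.83 (SE 0.20, adjusted p = 1.3e-11). Of the 7 other Vcan probe sets, values in carcinoma ran from -0.53, called lower, to 5.0.

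Dcn and Lum, neighbouring genes on chromosome 10 for 2 small leucine-rich proteoglycans, did not move alike. Dcn read 11.87, 11.67, 12.29, 11.95 and 11.52 in untreated liver, 11.81, 11.89, 12.06, 11.82 and 11.98 in phenobarbital liver, 13.08, 13.04, 11.35, 12.56 and 12.74 in carcinoma and 9.39, 9.93, 11.06, 11.57 and 9.85 in adenoma. All 5 adenomas were below the phenobarbital livers, and 4 of 5 carcinomas above the untreated livers. The adenoma difference was -1.55 (SE 0.35, adjusted p = 0.0028), and the effects differed by -2.25 (adjusted p = 0.00087). The carcinoma value, 0.70 (adjusted p = 0.082), passed at 1.00 (adjusted p = 0.0093) without carcinoma array 3, and also with quantile normalization and with array weights (0.89 to 1.00 over the 3).

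Lum rose by 3.58 in carcinoma, where arrays read 10.24 to 11.85 against 7.43 to 8.01 in untreated liver, and stood at 0.52 in adenoma (adjusted p = 0.35). Bgn, biglycan, rose by 2.03 in carcinoma and stood at -0.11 in adenoma. In adenoma, a second Dcn probe set gave -0.23 and did not pass.

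Matricellular proteins, secreted modulators of how cells meet the matrix, included the second largest carcinoma rise. Thbs1, thrombospondin-1, an activator of latent TGF-beta, read 5.07, 4.82, 4.61, 4.22 and 4.30 in untreated liver and 4.19, 4.71, 4.49, 4.07 and 4.54 in phenobarbital liver. Carcinomas read 10.86, 9.74, 9.24, 9.42 and 9.95, and adenomas 5.11, 5.28, 7.79, 7.04 and 5.99. Every adenoma exceeded every non-tumour array and fell short of every carcinoma. The difference was 5.24 (SE 0.40) in carcinoma and 1.84 (SE 0.40, adjusted p = 0.0022) in adenoma, where a second probe set gave 0.79 (adjusted p = 0.070).

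Sparc, a collagen-binding glycoprotein, rose by 3.92 and 1.41, with adenoma array 1, at 9.70, within the phenobarbital range. A second Sparc probe set rose by 4.14 and 1.73, and its remaining probe set was called lower in carcinoma (-0.41) and gave 0.01 in adenoma. Sparcl1, its relative hevin, rose by 3.93 in carcinoma and stood at 0.87 in adenoma. Postn, periostin, rose by 2.17 and Thbs2 by 3.32 in carcinoma, with 0.59 and 0.34 in adenoma. Mgp, a calcification inhibitor, rose by 4.85 (SE 0.67) in carcinoma, and by 5.41 without untreated array 4, which read 8.53 against 5.47 to 6.24 on the other 4. Tnc, tenascin-C, passed in neither tumour, at 0.24 and 0.81 (adjusted p = 0.056 in adenoma). Its adenoma value was called higher in 6 alternatives, among them the mean of all probe sets and leaving out adenoma array 2 (0.55 to 0.96, adjusted p up to 0.047).

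Fn1, fibronectin, went the other way. It fell by 1.43 (SE 0.35, adjusted p = 0.0013) in carcinoma, with arrays at 11.58, 9.96, 11.60, 12.78 and 10.58 against 12.41 to 12.89 in untreated liver. Carcinoma array 4 alone lay within the untreated range. In adenoma the Fn1 value was 0.13, and the effects differed by 1.56 (adjusted p = 0.014). Together with Col18a1 and Efemp1 it made up the 3 members lower in carcinoma. These falls ran beside a fall of all 10 measured hepatocyte markers in carcinoma; its part in the result was not tested.

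The cross-linking enzymes Lox and Loxl1, which oxidise lysines of collagen and elastin, both rose in carcinoma. Loxl1 rose by 2.97 (SE 0.33, adjusted p = 1.3e-07), with 7.71 to 8.90 in carcinoma against 4.94 to 5.96 in untreated liver. In adenoma Loxl1 read 4.79, 5.60, 5.74, 6.85 and 4.83 against 4.46 to 5.40 in phenobarbital liver, a difference of 0.59 that did not pass. Lox read 8.40, 6.28, 7.32, 6.38 and 6.03 in carcinoma and 4.69, 4.70, 5.88, 7.17 and 5.10 in adenoma against 4.72 to 4.98 in phenobarbital liver. Lox rose by 2.03 in carcinoma and stood at 0.65 in adenoma (adjusted p = 0.28), where arrays 3 and 4 were well above the others. A second Loxl1 probe set gave 0.09 in carcinoma and did not pass.

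The comparison of the tumour effects, each measured against its own control liver, tested the difference itself. The signed difference, adenoma effect minus carcinoma effect, passed the test below 0 for 27 members and above 0 for 3, against 23.5% and 23.2% of all genes; the median was -1.38 for the members and 0.08 for all genes. With arrays centred on their medians, 61.6% of all genes called in this test were higher, against 49.8% here. The 3 called above 0 were Col8a1, with the larger rise in adenoma, and Col18a1 and Fn1, which fell in carcinoma and did not pass in adenoma. Dcn, among the 27, fell in adenoma and did not pass in carcinoma. Col4a1, Col4a2, Col5a2, Efemp1 and Hspg2 were among the 13 members for which this test did not pass. For Col5a2 that changes without untreated arrays 3 and 4, and for Hspg2 with the mean of its probe sets (-0.85, adjusted p = 0.00054). The direct comparison of the 2 tumour groups gave 29 members lower and 3 higher in adenoma, against 28.7% and 33.7% of all genes. The member medians were -1.49 there and 0.10 for all genes.

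By joint pattern, 13 members were called higher in both tumours: Col1a1, Col1a2, Col3a1, Col4a1, Col4a2, Col5a2, Col6a3, Col8a1, Lama2, Lamc1, Nid1, Sparc and Thbs1. This pattern held for 8.81% of all genes. A further 19 were called higher in carcinoma and not in adenoma, as were 21.3% of all genes. Among them, Col5a1 and Fbln1 each had another probe set that was called higher in adenoma. The test of the difference of effects also passed for 17 of those 19, while Lox gave -1.38 (adjusted p = 0.063) and Lama4 gave -0.32 (adjusted p = 0.34). Nid2 was called higher in adenoma and not in carcinoma, as were 2.89% of all genes. No member was called higher in one tumour and lower in the other, a pattern of 3.21% of all genes.

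The median SD of the members exceeded that over all genes in each group, without matching for brightness. Of the 18193 genes, 12017 read above 5.85 on at least 5 arrays, as did 41 of the 43 members. A single group could meet this: Vcan did so through the carcinomas alone, reading at most 4.50 elsewhere. The median SD over the 43 members was 0.32 in untreated liver, 0.19 in phenobarbital liver, 0.58 in carcinoma and 0.62 in adenoma, against 0.17, 0.14, 0.21 and 0.23 over all genes. Among the adenomas, array 1 was the lowest for 31 of 43 members and array 4 the highest for 24. Their median deviations from the group median were -0.52 and 0.64, while the median over all genes was 0 for each array. Among untreated livers, arrays 3 and 4 were highest for 17 and 18 members.

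Leaving out adenoma array 1 raised the number of members called in adenoma from 16 to 19, with Col5a1, Fbln2 and Sparcl1 added at 0.48, 0.64 and 1.34. Leaving out adenoma array 4 lowered it to 14, without Col6a3 and Nid2. Array 1 was the lowest and array 4 the highest for most members. Leaving them out thus had to raise and lower most adenoma means, so these directions are no independent result. The direction of Mgp in adenoma turned with array 4, from 0.54 to -0.16, neither called. Over the same arrays, the stellate and fibroblast marker list had its lowest mean level on adenoma array 1, at 6.46, and its highest on array 4, at 7.47. In untreated liver it was highest on arrays 3 and 4, at 7.78 and 7.68. Smooth muscle and hepatocyte markers were also lowest on adenoma array 1 (6.06 and 12.21) and highest on array 4 (7.11 and 13.32). The other cell type lists did not share both extremes, and the biliary list was highest on adenoma array 1, at 5.54. Smooth muscle and endothelial markers, too, were highest on untreated arrays 3 and 4. The part of any cell type in the spread was not tested.

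**Figure D3:**
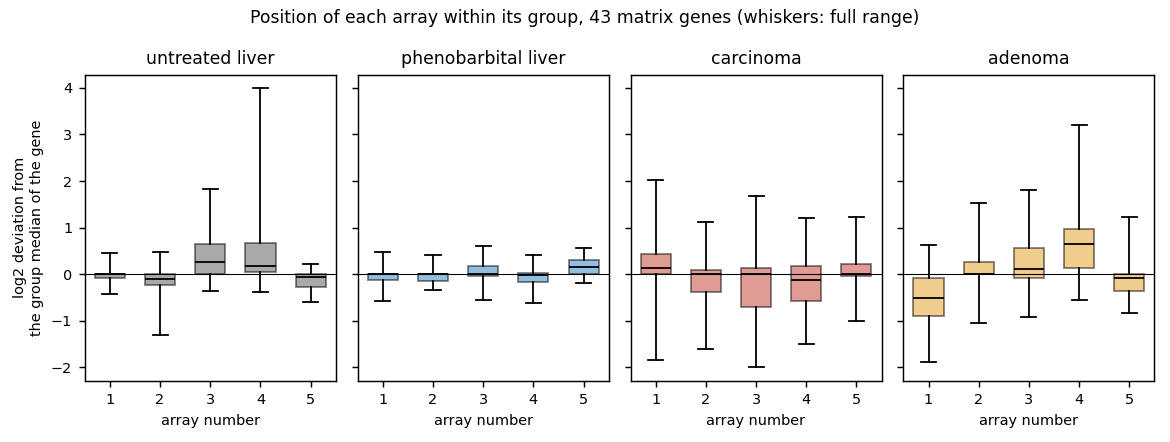
Deviation of each of the 43 genes from its group's median (y axis, log2) on each array (x axis), one panel a group, as boxes with quartiles and whiskers over the full range. Adenoma array 1 sits low and array 4 high, and untreated arrays 3 and 4 reach up, with Col5a2 on array 4 the furthest.

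Of 23 measured genes that fold and process collagen, 14 were higher, 4 lower and 5 not called in carcinoma. Over all genes 31.5% were higher and 37.7% lower there, and 13.5% and 11.3% in adenoma. Plod2, a lysyl hydroxylase that prepares collagen for cross-links, rose by 4.82 and Colgalt2, a collagen galactosyltransferase, by 4.54, while Mia3, which helps export collagen from the endoplasmic reticulum, fell by 1.20 and P4hb, a subunit of prolyl hydroxylase, by 0.74. In adenoma 5 were higher and 1 lower, led by P4ha2 at 1.09 and Plod1 at 1.00, with Bmp1, the procollagen C-proteinase, at -0.72. The list's median was 0.62 in carcinoma and 0.18 in adenoma.

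Other matrix proteins outside the member list were mixed. In carcinoma 21 of 41 were higher and 7 lower, against 31.5% and 37.7% of all genes. In adenoma 3 were higher and 5 lower, against 13.5% and 11.3% of all genes. Those adenoma counts lie near or below the shares and are no result about the list. Egfl6, a secreted EGF-repeat protein, rose by 8.60 in carcinoma and Ltbp1, which binds latent TGF-beta, by 6.32. Vtn, the plasma protein vitronectin made by hepatocytes, fell by 5.06 and Col5a3, the third type V chain, by 2.33. Col5a3 fell in adenoma too, by 1.55, unlike Col5a2.

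Of 24 matrix receptors, 10 were higher and 9 lower in carcinoma, and 7 higher and 2 lower in adenoma. In adenoma 13.5% of all genes were higher and 11.3% lower. The carcinoma counts lie near the shares over all genes, 31.5% higher and 37.7% lower, so they are no result about receptors as a list. Ddr1, a receptor tyrosine kinase that binds collagen, rose by 5.97 (SE 0.41) in carcinoma and 2.99 (SE 0.41) in adenoma. Itgb8, an integrin that binds latent TGF-beta, rose by 3.54 in carcinoma, and Itga6, an α chain of laminin receptors, by 2.38 in adenoma. The syndecans Sdc4 and Sdc2 fell by 1.96 and 1.58 in carcinoma, and Sdc1 fell by 0.82 in adenoma.

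TGF-beta is a main inducer of matrix production in liver. Its signalling genes included 15 of 20 higher and 1 lower in carcinoma, against 31.5% and 37.7% of all genes. The list holds inhibitors of the pathway as well as ligands and receptors, so the counts are no measure of its activity. Its part in the matrix differences was not tested. Tgfb2, a ligand, rose by 5.26 in carcinoma and 1.75 in adenoma, and Eng, an endothelial co-receptor, fell by 0.81 and 0.43. In adenoma 4 of 20 were higher and 1 lower, against 13.5% and 11.3% of all genes, with Tgfbr2, the type II receptor, at 0.93. Ltbp1 stands in this list and among the other matrix proteins. No gene of these 4 lists was called in phenobarbital liver against untreated liver. Only 0.225% of all genes were called there, so this is no result about the lists. All 4 lists were chosen with results of these data known.

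Cell type markers were called in both tumours, some lists with the matrix genes and some against them, and their part in the results was not tested. Over all genes 31.5% were higher and 37.7% lower in carcinoma, and 13.5% and 11.3% in adenoma. Counts near those shares are no result about a list. Stellate and fibroblast markers were 6 higher and 3 lower of 14 in carcinoma, and 0 higher and 5 lower in adenoma. Their mean level ranged from 7.09 to 7.78 in untreated liver, 7.26 to 7.45 in phenobarbital liver, 8.18 to 8.72 in carcinoma and 6.46 to 7.47 in adenoma. Lrat, which stores retinol in quiescent stellate cells, rose by 0.85 in carcinoma (adjusted p = 0.035) and fell by 1.73 (adjusted p = 0.0011) in adenoma. Cygb and Ngfr rose most in carcinoma, by 3.96 and 3.33, and gave 0.22 and -0.85 in adenoma, where neither passed. Reln fell by 1.96 in carcinoma and 1.64 in adenoma, and Gfap by 0.62 and 0.49. Pdgfrb, a receptor of stellate cells and pericytes, rose by 1.5 in carcinoma and gave 0.54 (adjusted p = 0.34) in adenoma. Pdgfra rose by 3.28 in carcinoma and gave -0.88 (adjusted p = 0.12) in adenoma.

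Smooth muscle markers were 5 higher and 1 lower of 7 in carcinoma and 2 higher in adenoma, with mean levels of 5.76 to 6.41, 5.83 to 6.14, 8.01 to 9.37 and 6.06 to 7.11 in untreated liver, phenobarbital liver, carcinoma and adenoma. Acta2, smooth muscle actin, also made by activated stellate cells, rose by 7.20 (SE 0.48) in carcinoma and 2.04 (SE 0.48, adjusted p = 0.0037) in adenoma. Endothelial markers were 1 higher (Cd34, by 3.19) and 11 lower of 15 in carcinoma, and 4 higher (led by Cd34, by 3.01) and 1 lower in adenoma; their levels ran from 5.65 to 6.45 in carcinoma against 7.39 to 7.71 in untreated liver. Pecam1, the endothelial adhesion molecule, averaged 5.43 in untreated liver, 4.99 in carcinoma and 6.59 in adenoma. Biliary markers were 1 higher and 2 lower of 7 in carcinoma and 1 lower in adenoma, with Krt19 averaging 5.65 and 5.99.

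Macrophage markers were 2 higher and 6 lower of 11 in carcinoma and 1 higher and 4 lower in adenoma. Lymphocyte markers were 3 higher and 5 lower of 8, and mesothelial markers 0 higher and 3 lower of 5, in carcinoma. Hepatocyte markers were lower for 10 of 10 in carcinoma and 2 of 10 in adenoma. Alb, albumin, averaged 14.96 in untreated liver, 14.92 in adenoma and 12.66 ± 2.03 (SD, n = 5) in carcinoma, with its lowest carcinoma value at 9.18. Array values have no true 0, so absence of a marker cannot be read from them. Apc, the targeted gene, averaged 8.84, 8.54, 10.68 and 9.06 in untreated liver, phenobarbital liver, carcinoma and adenoma; the deleted part of Apc was not given, so this probe set checks no label.

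**Figure D4:**
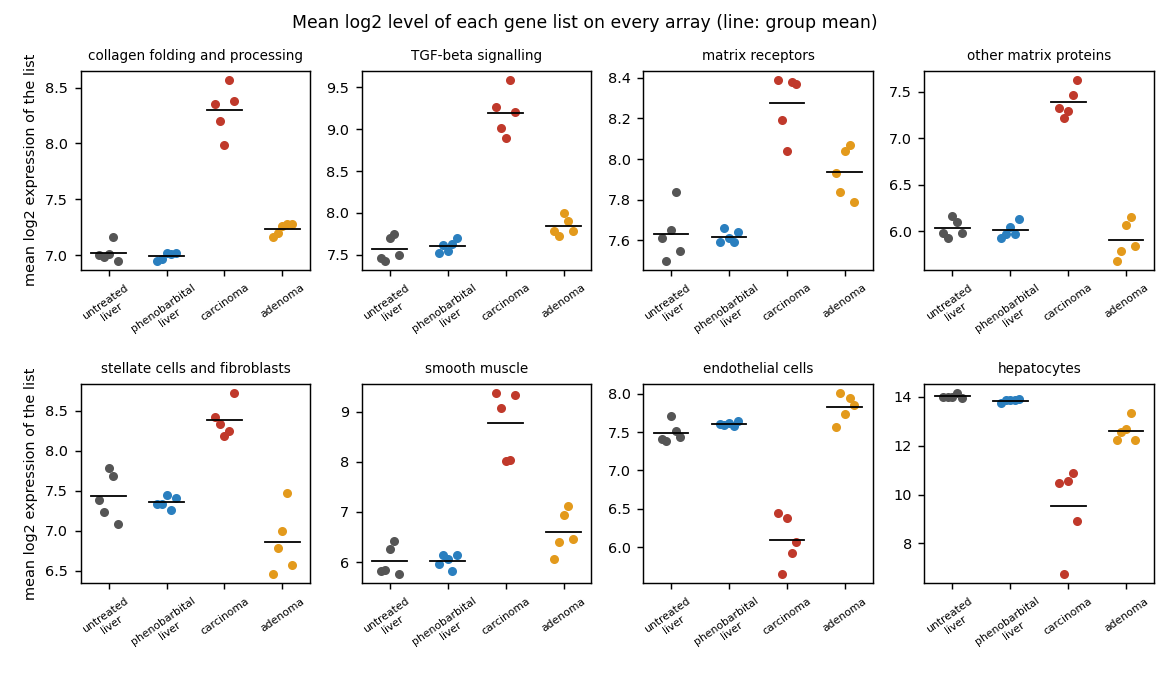
Mean log2 level (y axis) of 8 gene lists on every array of the 4 groups (x axis), with the group mean as a line. The collagen processing and TGF-beta lists are highest in carcinoma, the stellate and fibroblast list lies lowest in adenoma, and the hepatocyte list falls from 13.96 or more in untreated liver to between 6.75 and 10.88 in carcinoma.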

How the data were processed

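Log2 expression values from 20 Affymetrix arrays of mouse liver (biotin-labelled RNA) were used as the authors deposited them. Per the submitters' processing notes they were made by RMA (background correction, quantile normalization and probe set summary); its version was not given in the sources used here. The deposited log2 values ran from 2.67 to 15.09 and array medians from 5.52 to 5.63. Arrays give no read depth; precision depends on how many there are.

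Probe sets were named from the platform's annotation with symbols updated through a RefSeq gene table: of 45037 probe sets, 34945 carried 1 symbol (34741 matched in the table), 932 several and 9160 none. The probe set of highest mean stood for each of 18193 genes. For 31 of the 43 members there was more than 1 probe set.

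Groups were compared with limma, version 3.58.1, under R 4.3.3 (moderated linear models from lmFit with eBayes, 1 fit over the 4 groups, 16 residual and 3.21 prior degrees of freedom), two-sided, with Benjamini-Hochberg adjustment over all genes in each comparison and a threshold of 0.05. The fit was tested on simulated data. The genes given on every array are those with the largest change of each role in each tumour comparison, and others were added as the text needed; of each pathway list and of the stellate list, up to 2 that rose most and 2 that fell most are named, and of the remaining cell type lists mainly the defining markers. Members and lists were chosen with earlier results of these data known. Alternatives were another probe set rule, a filter on dim probe sets, other scaling and variance settings, the groups compared alone, a replicate block, array weights, and leaving out each array or untreated arrays 3 and 4. Deviations of same-numbered arrays from their group means correlated little (-0.115 to 0.131 over 30 pairs, 1 of them over 0.1). Replicate numbers were not used as pairs. Arrays of different numbers were not compared in this way, so pairing is not excluded.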

Additional observations from a re-analysis of the deposited data

Results flagged for a closer look

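The effect of adenoma against its control differed from that of carcinoma by limma's test of the difference (adjusted p under 0.05) for 30 members, given here as adenoma effect minus carcinoma effect on the log2 scale. Among fibrillar and type VI collagens the differences were Col1a1 at -1.64, Col1a2 at -2.23, Col3a1 at -2.13, Col5a1 at -1.22, Col6a1 at -1.82, Col6a2 at -1.87 and Col6a3 at -1.56. Col8a1 differed the other way, at 1.15, as did Col18a1 at 1.60 and Fn1 at 1.56. In basement membranes they were Col15a1 at -1.32, Lama2 at -2.51, Lama5 at -0.94, Lamb1 at -3.37, Lamb2 at -3.12, Lamc1 at -0.67 and Nid1 at -1.09. The fibulins gave Fbln1 at -4.62 and Fbln2 at -1.21, and the proteoglycans Dcn at -2.25, Lum at -3.06, Bgn at -2.14 and Vcan at -3.83. The matricellular genes gave Sparc at -2.52, Sparcl1 at -3.06, Postn at -1.58, Thbs1 at -3.39, Thbs2 at -2.98 and Mgp at -4.32, and the cross-linking enzyme Loxl1 -2.38. The calls for Lamc1, Nid1 and Col8a1 were lost when single arrays were left out, as the report describes. Of these members, 21 had other probe sets. For 6 of the 21, no other probe set was called the same way: Col1a2, Lamc1, Nid1, Fbln2, Dcn and Loxl1. For Vcan and Sparc, other probe sets were called in both directions.

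A single array stood apart from the other 4 of its group in 11 of 172 combinations of gene and group by Dixon's test at 95%; chance alone flags about 1 in 20. In untreated liver, array 4 was high for Lama2 at 6.81 (the others 5.70 to 5.97), for Sparcl1 at 7.13 (6.19 to 6.45) and for Mgp at 8.53 (5.47 to 6.24), and array 3 was high for Postn at 8.65 (7.86 to 8.07). In phenobarbital liver, array 5 was high for Fbln5 at 7.29 (6.59 to 6.74) and Bgn at 10.59 (10.19 to 10.21), array 4 low for Lama5 at 7.18 (7.35 to 7.41), and array 2 low for Lamb1 at 6.76 (6.98 to 7.05). In adenoma, array 1 was low for Sparc at 9.70 (11.08 to 11.44), array 4 low for Lamb2 at 5.38 (5.77 to 5.87) and array 3 high for Vcan at 4.5 (3.96 to 4.09).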

How the results depend on the processing

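The number of members called stayed within 1.5 times its value under every alternative run: 34 to 37 in carcinoma (35 as reported), 14 to 19 in adenoma (16), 31 to 35 between the tumours (32), 27 to 32 for the difference of effects (30), and 0 for phenobarbital. Leaving out single arrays gave 35 to 36, 14 to 19, 32 to 33 and 27 to 31. With the replicate block the counts were 35, 16, 33, 30 and 0. Whether the numbers pair the arrays is not known. Calls kept in every alternative that measured them numbered 34 of 35, 13 of 16, 31 of 32 and 27 of 30. Lama4 lost its carcinoma call with the mean of all probe sets, array centring and quantile normalization (0.12 to 0.41), and Lox its call between the tumours when only those groups were fitted (adjusted p = 0.06). With the mean of all probe sets Hspg2 gave 1.06 and Col12a1 0.82 in carcinoma, both called. Of the single-member results over all alternatives, 4572 kept their side of the threshold, 62 fell below it, 43 rose above it and 0 reversed. The filter on dim probe sets (above 5.85 on at least 5 arrays) kept 41 members and dropped Col15a1 and Tnc. The arrays of a single group could meet it, so it also kept members bright in the carcinomas alone, such as Vcan.

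Centring each array on its median moved the median of all genes to -0.34 in carcinoma and -0.11 in adenoma, and the split of higher and lower calls from 5739 and 6850 to 4686 and 9500 in carcinoma, from 2451 and 2050 to 1919 and 3014 in adenoma, and from 4229 and 4269 to 5834 and 3637 for the difference of effects. With the dim filter the carcinoma split was 5095 and 4153. For phenobarbital, 37 genes were higher and 4 lower as reported, 193 and 85 when only the 2 groups were fitted, and 159 and 59 with array weights. With 5 arrays a group and unknown sharing of mice, small differences of dim genes are not resolved.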
